A study of Mus musculus with 9 samples.

Results

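The genes described are 8 subunits of the sodium, calcium and pacemaker channels of the heart: Scn4b, Cacna1c, Cacna1g, Cacna1h, Cacna2d1, Cacnb2, Hcn2 and Hcn4. They were taken by symbol from the 43154 genes that each file lists. All 8 were found once, and all 8 reached 1 FPKM (fragments per kilobase of transcript, relative to all mapped fragments) in at least 2 hearts, the level at which 13487 genes were tested. Hearts of 9 C57BL/6 mice in 3 groups were profiled by messenger RNA sequencing. Transgenic mice expressed calcineurin A, a phosphatase activated by calcium, from the MHC promoter. The myosin heavy chain promoter is active in cardiomyocytes, so the transgene is no model of calcineurin activity in other heart cells. Of the transgenic mice, 3 received vehicle and 2 received JIB-04, which inhibits histone demethylases of the Jumonji family. Dosing began when mice were 4 weeks old, and each of the 3 weekly doses was 50 mg/kg, with vehicle on the same schedule. The 4 wild type mice received vehicle, and no wild type heart given JIB-04 was analysed here. Transgenic vehicle heart 1, JIB-04 heart 1 and wild type hearts 1 and 2 were collected at postnatal day 125, and the other 5 hearts at day 158.

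The heartbeat starts in pacemaker cells, where HCN channels pass an inward current on hyperpolarization and T-type calcium channels open at negative voltages. Sodium channels then carry the fast upstroke through the working muscle, and L-type calcium channels let in the calcium that triggers contraction. Adult ventricular muscle normally holds little HCN4 and little T-type current, and both are known to reappear in hypertrophied hearts.

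Ppp3ca, which encodes the catalytic subunit of calcineurin, checked the labels. It was at 1762, 1706 and 199 FPKM in transgenic vehicle hearts 1 to 3, at 1536 and 1434 in the JIB-04 hearts, and between 22.9 and 24.8 in the wild type hearts. All 5 transgenic hearts thus matched their label, and transgenic vehicle heart 3 stood far below the other 4. The same heart and JIB-04 heart 2 held 29.8% and 30.9% of their summed FPKM on mitochondrial genes, against at most 26.3% in the others. Only in these 2 libraries was mt-Atp6 above 0, and mt-Atp8 and mt-Co3 likewise, while the other 7 list all 3 genes at 0. In the order named, the 3 genes stood at 28964, 50185 and 35807 FPKM in transgenic vehicle heart 3, whose genes total 682945. JIB-04 heart 2 had 29964, 47643 and 38913 FPKM, from a total of 661960. The higher shares include these 3 genes, so they cannot be compared directly with the shares of the other 7 hearts. Results on the channel genes are therefore also given without these 2 hearts. The files hold no read counts, so the absolute depth of the hearts is not given here.

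Transgenic hearts given vehicle differed from wild type hearts in 5 of the 8 channel genes. Cacna1g, Hcn4 and Cacna1c rose, where 20.3% of all genes tested did, and Hcn2 and Cacna2d1 fell, where 15.7% did. Cacna1h, Cacnb2 and Scn4b did not pass the test. Calls were made with limma on log2(FPKM + 1) at an adjusted p under 0.05, and the same test called 36% of all genes tested, so the share of channel genes called is to be read against a wide background. The median size of the log2 difference was 0.54 among the 8 channel genes and 0.25 over all genes tested. The 2 groups did not overlap in 5 of the 8 genes, against 41.2% of all genes. All 5 transgenic hearts lay apart from the 4 wild type hearts in 4 of the 8 (Cacna1g, Cacna2d1, Hcn2 and Hcn4), against 35.6% of all genes. Without transgenic vehicle heart 3 and JIB-04 heart 2, the same test again called 5 of the 8. The hearts are bulk tissue, in which fewer cells of a type and less RNA per cell cannot be told apart.

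**Figure D1:**
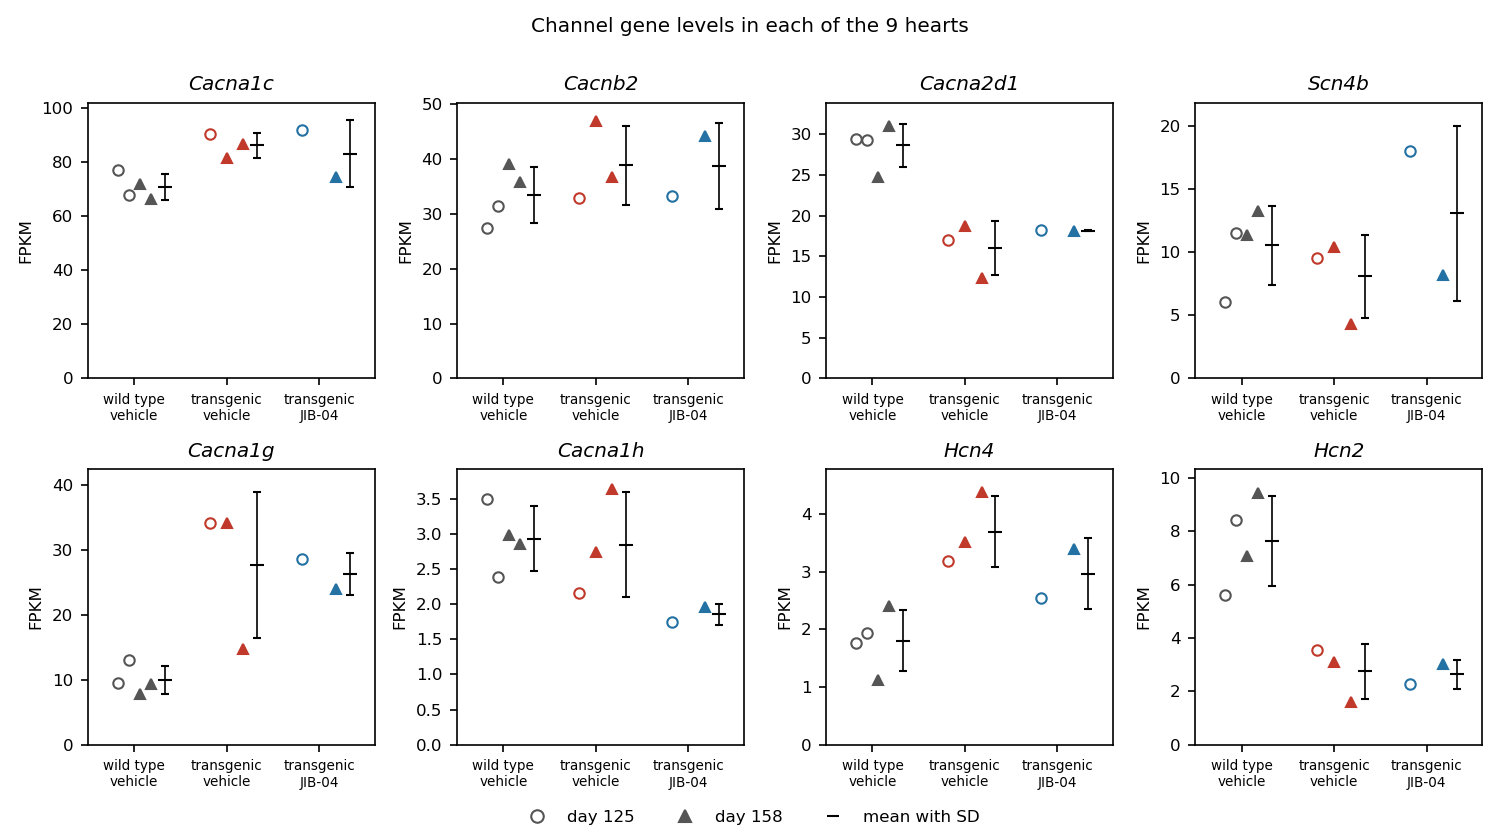
FPKM (linear axes from 0) of the 8 channel genes in each heart, by group, with circles for day 125, triangles for day 158 and bars for the group mean with its SD. All 5 transgenic hearts lie above the wild type hearts for Cacna1g and Hcn4 and below them for Cacna2d1 and Hcn2.

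The L-type channel of the heart joins a pore, an intracellular β subunit and an extracellular α2δ subunit. Cacna1c, on the minus strand of chromosome 6 (118587240 to 119196418, GRCm38), encodes the pore CaV1.2 and had the highest level of the 8 genes in every group. It stood at 90.5, 81.3 and 86.7 FPKM in the transgenic vehicle hearts, at 91.9 and 74.3 in the JIB-04 hearts, and at 77.1, 67.7, 72.0 and 66.2 in the wild type hearts. The vehicle groups did not overlap, although JIB-04 heart 2 fell within the wild type range. The mean rose from 70.8 ± 4.89 (SD, n = 4) in wild type to 86.1 ± 4.63 FPKM (SD, n = 3) in transgenic vehicle hearts, a ratio of 1.22. On the log2 scale the difference was 0.30 ± 0.08 (SE, limma adjusted p = 0.021), and 0.28 without transgenic vehicle heart 3 and JIB-04 heart 2 (0.039). The call ended without transgenic vehicle heart 1 (adjusted p = 0.07), without wild type heart 4 (0.065) and without the term for day (0.054).

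Cacna2d1, on the plus strand of chromosome 5 (15934691 to 16374511), encodes α2δ-1, which brings the pore to the membrane and is the binding site of gabapentin. It stood at 17.0, 18.7 and 12.3 FPKM in the transgenic vehicle hearts, at 18.2 and 18.1 in the JIB-04 hearts, and at 29.4, 29.3, 24.8 and 31.0 in the wild type hearts. Each transgenic heart was below each wild type heart. The mean fell from 28.6 ± 2.66 (SD, n = 4) in wild type to 16 ± 3.31 FPKM (SD, n = 3) in transgenic vehicle hearts, a ratio of 0.560. The log2 difference was -0.80 ± 0.14 (SE, limma adjusted p = 0.0032), and -0.65 without transgenic vehicle heart 3 and JIB-04 heart 2 (adjusted p = 0.005).

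Cacnb2, on the plus strand of chromosome 2 (14603088 to 14987908), encodes a β subunit that escorts and gates the pore. It stood at 32.9, 46.9 and 36.7 FPKM in the transgenic vehicle hearts, at 33.2 and 44.3 in the JIB-04 hearts, and at 27.4, 31.5, 39.1 and 35.9 in the wild type hearts. The groups overlapped, and the log2 difference of 0.15 ± 0.10 (SE) did not pass (limma adjusted p = 0.28, 95% interval -0.08 to 0.37, and 0.24 without transgenic vehicle heart 3 and JIB-04 heart 2, adjusted p = 0.081). Pore and α2δ gene thus moved in opposite directions. The ratio of Cacna1c to Cacna2d1 FPKM was 4.35 to 7.04 in transgenic vehicle hearts, 4.1 and 5.06 in JIB-04 hearts and 2.14 to 2.90 in wild type hearts, with no overlap between transgenic and wild type hearts. The ratio of Cacna1c to Cacnb2 was 1.73 to 2.75, 1.68 to 2.77 and 1.84 to 2.81 in the same order, and the groups overlapped. The ratios were not tested.

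T-type channels need no such partners, and the heart uses 2 pore genes for them. Cacna1g, on the minus strand of chromosome 11 (94408391 to 94474198), encodes CaV3.1. It stood at 34.1, 34.2 and 14.7 FPKM in the transgenic vehicle hearts, at 28.6 and 24 in the JIB-04 hearts, and at 9.50, 13.0, 7.88 and 9.40 in the wild type hearts. Every transgenic heart was above every wild type heart, with transgenic vehicle heart 3 closest to them. The mean rose from 9.94 ± 2.15 (SD, n = 4) to 27.7 ± 11.3 FPKM (SD, n = 3), a ratio of 2.78. On the log2 scale it rose by 1.38 ± 0.25 (SE, limma adjusted p = 0.0043), and it was 1.70 without transgenic vehicle heart 3 and JIB-04 heart 2 (adjusted p = 0.00047).

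Cacna1h, on the minus strand of chromosome 17 (25374285 to 25433783), encodes CaV3.2, the second cardiac T-type pore. It stood at 2.16, 2.74 and 3.64 FPKM in the transgenic vehicle hearts, at 1.75 and 1.96 in the JIB-04 hearts, and at 3.50, 2.39, 2.99 and 2.86 in the wild type hearts. Transgenic vehicle and wild type hearts overlapped, with a log2 difference of -0.07 ± 0.14 (SE, limma adjusted p = 0.74, 95% interval -0.40 to 0.26), and of -0.19 without transgenic vehicle heart 3 and JIB-04 heart 2 (0.35). The FPKM of Cacna1g exceeded that of Cacna1h 2.63 to 5.42 times in wild type hearts, 12.2 and 16.3 times in JIB-04 hearts, and 15.8, 12.5 and 4.02 times in transgenic vehicle hearts 1 to 3. Transgenic vehicle heart 3 alone reached into the wild type range of this ratio. The summed FPKM of both T-type pores was 18.3 to 37.0 in transgenic vehicle hearts, 25.9 and 30.3 in JIB-04 hearts and 10.9 to 15.3 in wild type hearts. The level of Cacna1c was 4.41 to 6.62 times that sum in wild type hearts and 2.2 to 4.74 times in transgenic vehicle hearts. These ranges overlapped through transgenic vehicle heart 3 (4.74). In the JIB-04 hearts the level was 3.03 and 2.86 times the sum.

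**Figure D2:**
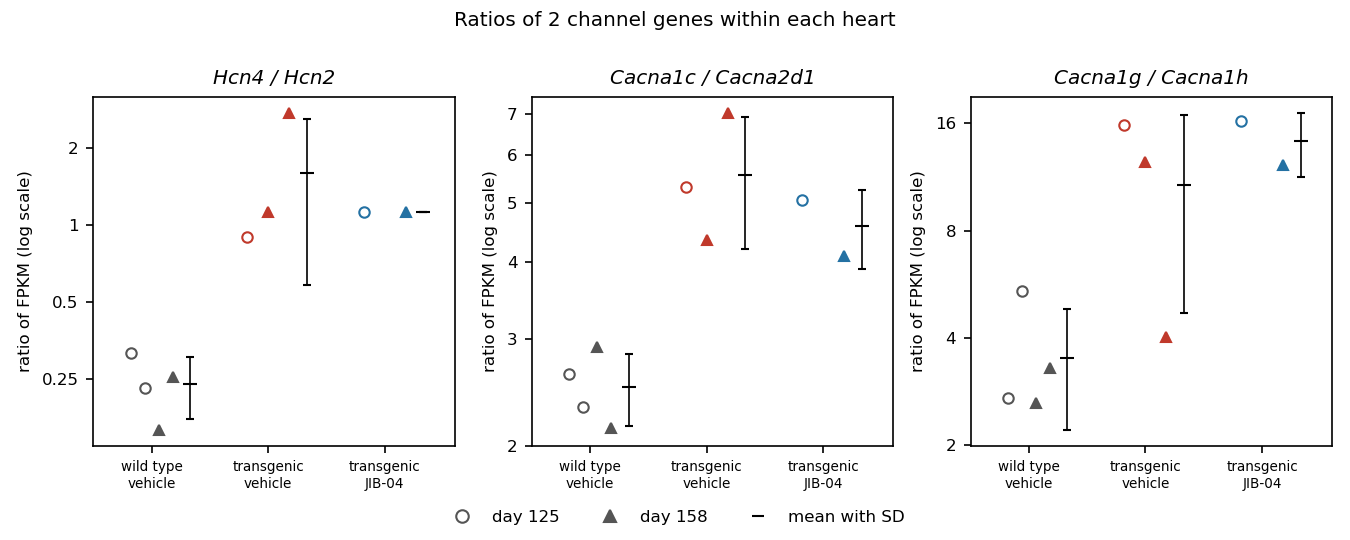
Ratio of the FPKM of 2 channel genes within each heart (log axes), by group, with circles for day 125, triangles for day 158 and bars for the mean with its SD. Hcn4 over Hcn2 is 0.158 to 0.316 in wild type hearts and 0.901 to 2.76 in the transgenic hearts, and the Cacna1g to Cacna1h ratio of 1 transgenic vehicle heart (4.02) lies within the wild type range.

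The pacemaker channel genes also moved in opposite directions. Hcn4, on the plus strand of chromosome 9 (58823512 to 58860955), encodes the main channel of the sinoatrial node. It stood at 3.19, 3.51 and 4.39 FPKM in the transgenic vehicle hearts, at 2.54 and 3.4 in the JIB-04 hearts, and at 1.77, 1.94, 1.12 and 2.40 in the wild type hearts. All transgenic hearts were above all wild type hearts, JIB-04 heart 1 by a small margin over wild type heart 4. The mean rose from 1.81 ± 0.530 (SD, n = 4) to 3.69 ± 0.620 FPKM (SD, n = 3), a ratio of 2.05. This is a log2 difference of 0.74 ± 0.18 (SE, limma adjusted p = 0.013), and it was 0.65 without transgenic vehicle heart 3 and JIB-04 heart 2 (adjusted p = 0.042).

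Hcn2, on the plus strand of chromosome 10 (79716634 to 79736108), encodes the HCN channel that leads in working ventricular muscle. It stood at 3.54, 3.10 and 1.59 FPKM in the transgenic vehicle hearts, at 2.26 and 3.02 in the JIB-04 hearts, and at 5.59, 8.41, 7.08 and 9.44 in the wild type hearts. No transgenic heart reached the lowest wild type heart. The mean fell from 7.63 ± 1.67 (SD, n = 4) to 2.74 ± 1.02 FPKM (SD, n = 3), 2.79 times lower. Its log2 difference was -1.23 ± 0.23 (SE, limma adjusted p = 0.0048), and it was -0.98 without transgenic vehicle heart 3 and JIB-04 heart 2 (adjusted p = 0.0086).

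Hcn2 was above Hcn4 in every wild type heart, with Hcn4 to Hcn2 ratios of 0.316, 0.230, 0.158 and 0.254. The ratio was 0.901, 1.13 and 2.76 in the transgenic vehicle hearts and 1.13 in both JIB-04 hearts. In 4 of the 5 transgenic hearts Hcn4 was thus above Hcn2, with transgenic vehicle heart 1 the exception. The margin was small in all of these but transgenic vehicle heart 3. An order between genes in FPKM rests on the transcript lengths used, which are not given here. The summed FPKM of Hcn2 and Hcn4 was 5.97 to 6.73 in transgenic vehicle hearts, 4.79 and 6.43 in JIB-04 hearts and 7.36 to 11.8 in wild type hearts. Hcn3, another pacemaker channel gene, reached at most 0.154 FPKM in any heart and was too low to test.

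Hcn4 is itself a marker of pacemaker tissue, so the levels of 12 markers of the conduction system, Hcn4 included, are given beside it. Their summed FPKM was 67.3 to 72.2 in wild type, 74.6 to 90.5 in transgenic vehicle and 81.8 in both JIB-04 hearts. Smoc2 and Igfbp5 made up most of this sum. In the same order, Smoc2 was at 34.8 to 40.8, 36.0 to 55.3 and 49.2 to 53.4 FPKM. Igfbp5 was at 17.0 to 21.3, 20.2 to 24.7 and 17.8 to 21.1. Of the 7 markers tested, 2 were higher and 2 lower in transgenic vehicle than in wild type hearts, against 20.3% and 15.7% of all genes tested. The 2 higher were Hcn4 itself and Tbx18. Isl1, which defines the sinoatrial lineage, was listed at 0 in all 9 hearts, and Tbx3, a repressor of the working muscle program in the conduction system, fell by 0.56 on the log2 scale (limma adjusted p = 0.0067). Tbx18, a factor of the sinoatrial node, rose by 0.81 (limma adjusted p = 0.00059). Shox2, a node factor too low to test, was at 0.127 to 0.287 FPKM in wild type, 0.329 to 0.775 in transgenic vehicle and 0.476 to 1.08 in JIB-04 hearts. Cntn2, in the same order, was at 1.19 to 2.11, 0.477 to 0.735 and 0.563 to 0.796 FPKM. Gja5 was at 3.12 to 4.40, 2.32 to 3.14 and 1.95 to 2.77.

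Markers of other cell types are given as well. Their counts higher and lower in transgenic vehicle than in wild type hearts stand against 20.3% and 15.7% of all genes tested. In wild type, transgenic vehicle and JIB-04 hearts in turn, 8 cardiomyocyte markers summed to 15212 to 17796, 12163 to 13568 and 11321 to 12742 FPKM (1 of 8 tested higher and 3 lower in transgenic vehicle than in wild type hearts). The 8 fibroblast markers summed to 633 to 810, 1101 to 1462 and 1165 to 1289 FPKM (5 of 8 higher, none lower). The 9 markers of smooth muscle and pericytes, cells that also express Cacna1c and Cacna1h, summed to 368 to 437, 324 to 726 and 605 to 668 FPKM (2 of 9 higher, 5 lower). Acta2 alone was at 22.2 to 52.7, 103 to 534 and 420 to 460 FPKM in the same order. The 10 atrial markers, which include Nppa, summed to 322 to 398, 1477 to 2396 and 2225 to 2362 FPKM, with 1 of 8 tested higher and 2 lower. Nppa alone accounted for 279 to 324 FPKM in wild type and 1436 to 2360 in transgenic vehicle hearts, while the atrial light chain Myl7 ranged from 0 to 13.5 and from 0.947 to 4.84. The 8 endothelial markers summed to 212 to 237, 171 to 249 and 153 to 183 FPKM (1 of 8 higher, 5 lower). Macrophage markers summed to 87.2 to 122, 116 to 136 and 121 to 134 FPKM, and none of the 5 tested was called. The part of these cell types in the channel results was not tested.

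The promoter windows of the 2 pacemaker genes and of Cacna2d1 are shown because these genes passed the test, did not overlap between transgenic and wild type hearts, and have a window in the RefSeq table (build GRCm38.p6). Each is the 250 bases before the RefSeq start on the plus strand, 5′ to 3′. The Hcn2 and Cacna2d1 windows end directly before the gene starts given above. The Hcn4 window ends at 58822948 and does not adjoin the start given above for Hcn4 (58823512). Capitals mark matches, on either strand, to the calcineurin-responsive NFAT core (GGAAA or TTTCC) and the GC box (GGGCGG or CCGCCC), where matches may overlap or adjoin.
Hcn2, chr10:79716384-79716633: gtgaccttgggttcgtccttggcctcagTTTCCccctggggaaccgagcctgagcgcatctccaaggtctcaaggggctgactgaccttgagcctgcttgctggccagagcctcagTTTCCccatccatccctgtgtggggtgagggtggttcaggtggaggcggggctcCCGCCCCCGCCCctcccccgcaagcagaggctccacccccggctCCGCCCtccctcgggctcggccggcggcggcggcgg
Hcn4, chr9:58822699-58822948: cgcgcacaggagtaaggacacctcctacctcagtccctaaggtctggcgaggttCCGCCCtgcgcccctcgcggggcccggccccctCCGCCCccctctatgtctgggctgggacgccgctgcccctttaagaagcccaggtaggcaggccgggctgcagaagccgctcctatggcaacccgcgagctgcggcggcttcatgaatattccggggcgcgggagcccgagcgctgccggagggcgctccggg
Cacna2d1, chr5:15934441-15934690: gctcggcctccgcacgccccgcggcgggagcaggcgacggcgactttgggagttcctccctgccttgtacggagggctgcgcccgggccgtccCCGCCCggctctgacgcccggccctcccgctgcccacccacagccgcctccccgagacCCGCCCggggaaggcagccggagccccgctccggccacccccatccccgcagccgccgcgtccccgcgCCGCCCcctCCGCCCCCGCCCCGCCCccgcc
The Hcn2 window holds 2 NFAT cores and 3 GC boxes, the Hcn4 window 0 and 2, and the Cacna2d1 window 0 and 6. An NFAT core stands in 55.6% and a GC box in 32.7% of the 32851 promoter windows of the same length. GC content was 70.4%, 71.2% and 82.4% in the 3 windows, against a median of 52.4% over all windows. Windows were found for 6 of the 8 genes, and none of their 9 windows holds the GATA core (GATAA or TTATC, in 22.6% of all windows) or TATAAA or its reverse complement TTTATA (12.4%). A match is a description of the letters and not a binding site.

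Scn4b, on the plus strand of chromosome 9 (45138437 to 45154152), encodes the β4 subunit that modulates the sodium channel pore. It stood at 9.56, 10.4 and 4.33 FPKM in the transgenic vehicle hearts, at 18 and 8.17 in the JIB-04 hearts, and at 6.07, 11.5, 11.4 and 13.3 in the wild type hearts. The hearts spread widely within each group and the groups overlapped. The log2 difference was -0.35 ± 0.37 (SE, limma adjusted p = 0.5, 95% interval -1.21 to 0.51), and -0.03 without transgenic vehicle heart 3 and JIB-04 heart 2 (0.94).

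Other sodium channel genes are given by 2 pores. Scn4a, the skeletal muscle pore, stood at 7.92, 10.3 and 5.36 FPKM in the transgenic vehicle hearts, 8.32 and 6.99 in the JIB-04 hearts and 4.43, 6.34, 7.96 and 6.92 in the wild type hearts. The groups overlapped, and the log2 difference of 0.22 ± 0.22 (SE) did not pass (limma adjusted p = 0.47). Scn7a stood at 4.59, 4.01 and 8.49 FPKM in the transgenic vehicle hearts, 4.76 and 4.62 in the JIB-04 hearts and 4.46, 3.56, 4.21 and 3.52 in the wild type hearts. Transgenic vehicle heart 3 was far above all others, and the log2 difference of 0.38 ± 0.21 (SE) did not pass (limma adjusted p = 0.2).

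Among 21 further voltage-gated calcium channel genes 6 were tested, 2 rose and 1 fell, against 20.3% and 15.7% of all genes tested, with a median log2 difference of 0.17 against 0.05 over all genes. Cacnb1, another β subunit gene, stood at 7.98, 9.94 and 13.5 FPKM in the transgenic vehicle hearts, 11.2 and 10.5 in the JIB-04 hearts and 2.41 to 3.06 in the wild type hearts. It rose in every transgenic heart, by a log2 difference of 1.60 ± 0.14 (SE, limma adjusted p = 0.00015), while Cacnb2 did not pass. Cacna1a, the pore of neuronal P/Q-type channels, was at 1.72 to 3.28 FPKM in transgenic vehicle hearts against 0.834 to 1.23 in wild type hearts (log2 difference 0.81 ± 0.17 SE, limma adjusted p = 0.0075, and 0.056 without transgenic vehicle heart 1). Its exons overlap the antisense gene Gm16183, and these libraries do not record strand. Gm16183 was at 0.449 to 0.77 FPKM in transgenic vehicle hearts and 0.174 to 0.256 in wild type hearts. Cacna1s, the skeletal muscle L-type pore, fell by 0.42 on the log2 scale (limma adjusted p = 0.034), with overlapping groups. Its call ended without transgenic vehicle heart 2 (0.067) or 3 (0.076) and without wild type heart 3 (0.091) or 4 (0.084), and also with the replicate number as a block (0.14), no term for day (0.095), no filter (0.083) or scaling without mitochondrial genes (0.059). The remaining 3 were Cacnb3 (0.22), Cacng6 (-0.67) and Cacng7 (0.12), with adjusted p of 0.35, 0.064 and 0.48.

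Of 25 genes for channel partners, proteins that bind or traffic these channels, 18 were tested, 3 rose and 5 fell, against 20.3% and 15.7% of all genes tested. Their median log2 difference was 0.04, against 0.05 over all genes. Pex5l encodes TRIP8b, an accessory subunit of HCN channels that is best known from neurons. It stood at 3.91, 4.61 and 5.74 FPKM in the transgenic vehicle hearts, 3.78 and 4.92 in the JIB-04 hearts and 0.131, 0.137, 0.179 and 0.234 in the wild type hearts. The means differed 28.0-fold and the log2 difference was 2.25 ± 0.11 (SE, limma adjusted p = 8e-06). Strand was not recorded in these libraries, and Pex5l shares exon sequence with annotated noncoding genes, of which 4930419G24Rik was listed at 0 in all hearts. Summed Schwann and neuronal markers were at 5.74 to 6.53 FPKM in wild type and 3.49 to 4.18 in transgenic vehicle hearts, and 3.90 to 7.57 in JIB-04 hearts.

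Fgf13, a partner that modulates sodium channels, stood at 25.5, 29.8 and 29.6 FPKM in the transgenic vehicle hearts, 29.2 and 27.0 in the JIB-04 hearts and 44.5 to 61.2 in the wild type hearts. It fell by 0.93 on the log2 scale (limma adjusted p = 0.0003). Rem1, a small GTPase that inhibits L-type channels, fell by 0.57 (adjusted p = 0.0051). Cav3, the muscle caveolin, rose by 0.36 (adjusted p = 0.0063), and this call ended without the term for day (0.052).

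**Figure D3:**
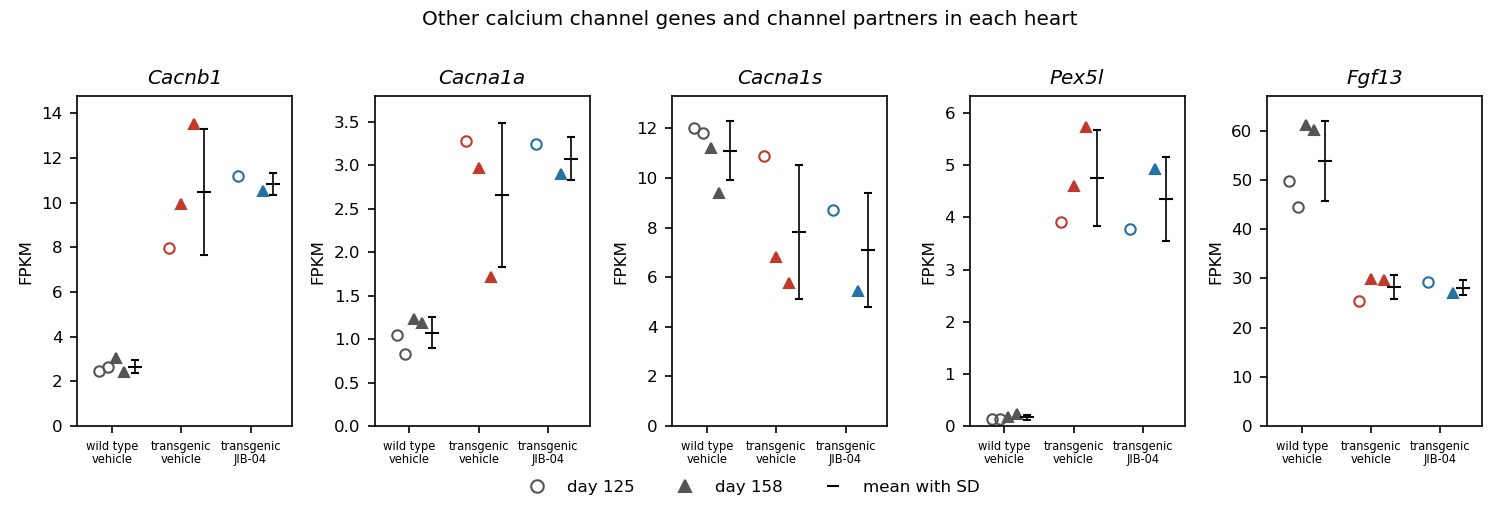
FPKM (linear axes from 0) of 3 further calcium channel genes and 2 channel partners in each heart, by group, with circles for day 125, triangles for day 158 and bars for the mean with its SD. Fgf13 is lower, and Cacnb1, Cacna1a and Pex5l higher, in every transgenic heart than in any wild type heart, while Cacna1s overlaps.

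JIB-04 was compared with vehicle within the transgenic hearts, 2 against 3. None of the 8 channel genes passed, with limma calling 0.00741% of all genes tested (1 gene). None reached an unadjusted p under 0.05 either, a level met by 3.29% of all genes. The nearest was Cacna1h, at 1.85 ± 0.147 FPKM (SD, n = 2) in JIB-04 hearts, and the vehicle hearts averaged 2.85 ± 0.749 (SD, n = 3). Both JIB-04 hearts were below all 3 vehicle hearts, a separation seen in 12.4% of all genes, and the log2 difference of -0.39 ± 0.17 (SE) did not pass (limma adjusted p = 0.99, 95% interval -0.78 to 0.00). The other 7 genes overlapped between the 2 groups.

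The intervals show what these few hearts could resolve. For the 5 genes called between transgenic vehicle and wild type hearts, the 95% limma interval of the JIB-04 difference was -0.75 to 0.65 for Cacna1g, -0.71 to 0.26 for Hcn4, -0.30 to 0.14 for Cacna1c, -0.21 to 0.55 for Cacna2d1 and -0.64 to 0.63 for Hcn2 (log2). It was -0.21 to 0.33 for Cacnb2 and -0.44 to 1.62 for Scn4b. The intervals of Cacna1c and Cacnb2 were the narrowest and that of Scn4b the widest. Without transgenic vehicle heart 3 and JIB-04 heart 2, which leaves 1 heart against 2, the differences ran from -0.36 (Cacna1g and Hcn2) to 0.97 (Scn4b) and none passed. No gene of the further calcium channel and partner lists passed between JIB-04 and vehicle (0 of 6 and 0 of 18).

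JIB-04 hearts were also compared with the wild type hearts, which serve as controls in both comparisons, so the 2 sets of values share them. Of the 8 channel genes 3 passed, Cacna1g higher and Cacna2d1 and Hcn2 lower, against 32.3% of all genes tested (17.4% higher and 14.8% lower). The log2 difference was 1.33 ± 0.29 (SE, limma adjusted p = 0.0093) for Cacna1g, -0.63 ± 0.16 (0.017) for Cacna2d1 and -1.23 ± 0.26 (0.0088) for Hcn2. Hcn4 stood at 0.51 ± 0.20 (0.082), Cacna1c at 0.22 ± 0.09 (0.097) and Cacna1h at -0.46 ± 0.16 (0.061), none of which passed. With a group of 2, single hearts decide these calls: without JIB-04 heart 1 none of the 8 passed, and without JIB-04 heart 2 only Hcn2 did. Both of these fits leave 1 JIB-04 heart, which is assumed to vary like the hearts of the other groups. Cacna1h passed without transgenic vehicle heart 3 (adjusted p = 0.03).

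**Figure D4:**
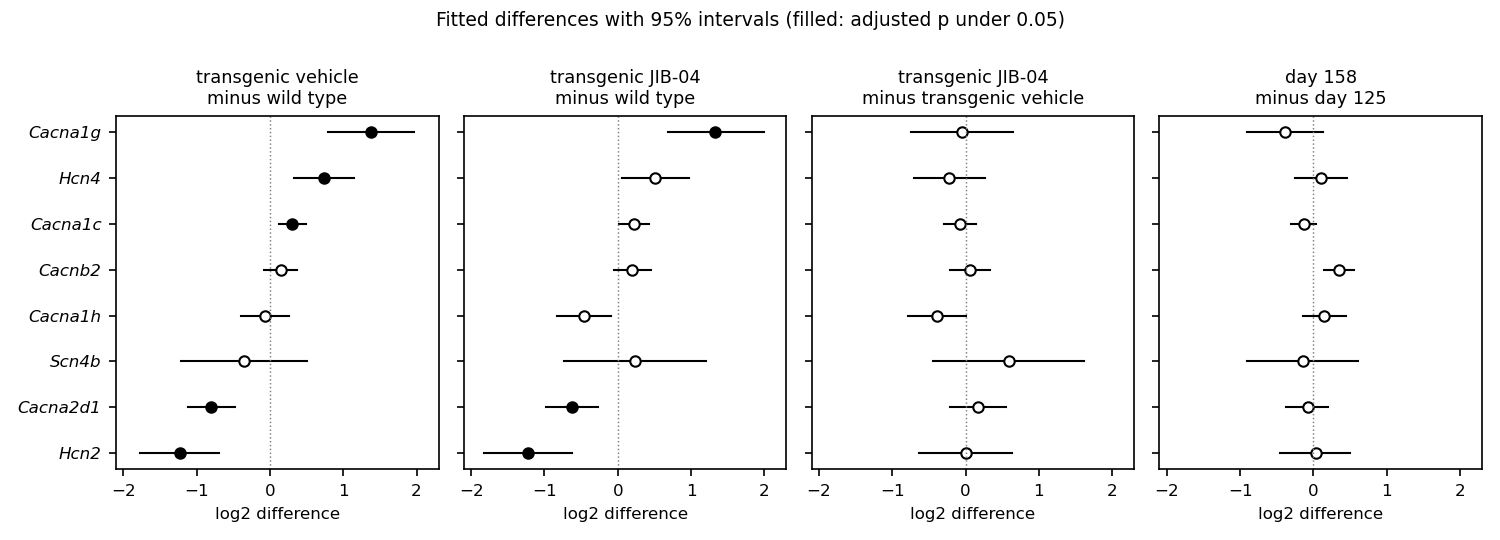
Fitted log2 differences (x axis) of the 8 channel genes with 95% intervals in 4 comparisons, filled where the adjusted p was under 0.05. Cacna1g, Cacna2d1 and Hcn2 are filled in both comparisons with wild type hearts, which share the wild type hearts, and no gene is filled for JIB-04 against vehicle or for day 158 against day 125.

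The day of collection moved no channel gene past the adjusted threshold, and limma called 0.378% of all genes tested between day 158 and day 125. Cacnb2 came closest, with a log2 difference of 0.35 ± 0.09 (SE, limma adjusted p = 0.098, 95% interval 0.15 to 0.55). Within each group its day 158 hearts were above its day 125 hearts, at 39.1 and 35.9 against 27.4 and 31.5 FPKM in wild type, 46.9 and 36.7 against 32.9 in transgenic vehicle, and 44.3 against 33.2 in JIB-04 hearts. At an unadjusted p under 0.05, Cacnb2 was 1 of 8 channel genes, while 18.8% of all genes reached that level.

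Within each day the effect of the transgene kept its sign in the 5 genes called over both days. At day 125 and day 158 the log2 difference between transgenic vehicle and wild type hearts was 1.54 and 1.29 for Cacna1g, 0.55 and 0.88 for Hcn4, 0.32 and 0.28 for Cacna1c, -0.75 and -0.83 for Cacna2d1, and -0.80 and -1.50 for Hcn2. At day 125, with 1 transgenic heart, none passed, and at day 158 Cacna2d1 (limma adjusted p = 0.049) and Hcn2 (0.024) did. The difference of the effect between the days passed for none of the 8 (limma adjusted p = 1.0, none at an unadjusted p under 0.05), with 0.00741% of all genes called and 2.97% at that unadjusted level. Its 95% interval was wide, from -1.83 to 0.42 for Hcn2 and from -1.73 to 1.24 for Cacna1g.

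Across the 9 hearts, the 2 genes whose log2(FPKM + 1) was most like each channel gene were found by Pearson correlation, as a description in which the hearts share the group difference. For Cacna1g they were Myl1 (0.992), a skeletal myosin light chain, and Ccdc64 (0.991). For Cacna2d1 they were Cmss1 (0.992) and Dlst (0.992), a subunit of the oxoglutarate dehydrogenase complex. For Hcn2 they were Fam73b (0.977) and Pxdn (0.977), a peroxidase of the extracellular matrix, and for Hcn4 Eif4a-ps4 (0.981) and the receptor Ror1 (0.977). The remaining pairs were Pelo (0.98) and Txnl1 (0.961) for Cacna1c, Card10 (0.962) and Sox18 (0.942) for Cacna1h, Socs4 (0.972) and Smcr8 (0.948) for Cacnb2, and Slc35a1 (0.944) and Wdr54 (0.926) for Scn4b.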

How the data were processed

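Trizol-extracted RNA of the hearts was sequenced from messenger RNA libraries that do not record strand, per the labels' protocols. The submitters' processing notes name STAR 2.7.1a, Picard, GATK 4.1.2, Cufflinks 2.2.1 and GRCm38. The role of each tool and the annotation release were not given in the sources used here. The values the authors deposited are log2 FPKM, per the file headers. The constant added is not stated and was read as 1, since every file has a minimum of exactly 0. Groups, days and doses came from the labels. The series text gives dosing until day 158, but 4 hearts are labelled day 125. Litters are not named, so p-values measure the spread between these hearts.

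The 13487 genes that reached 1 FPKM in 2 or more hearts entered a limma 3.58.1 fit (R 4.3.3) on log2(FPKM + 1), on which changes of low genes look smaller. It had a mean per group, a term for day and an intensity trend. P-values are two-sided and adjusted by Benjamini-Hochberg, with a threshold of 0.05. Values within a day used group-day means. The fit was tested on simulated data. The channel genes, lists and markers were chosen with earlier results of these data known. Named are the 8 channel genes, up to 4 called genes per list and comparison by p-value, other channel genes with a group mean of at least 1 FPKM, and the 2 most alike genes. Of the transcription factors, others are named after their values were seen. Some listed channel genes are not reported here. Positions are those of the files, counted from 1, and exon overlaps come from GENCODE M21.

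Alternatives were a pseudocount of 0.1, other filters (none, or 5 FPKM), scaling without mitochondrial and the 20 highest genes, median of ratios scaling, no trend, the replicate number as a block, no term for day, fewer groups, day 158 only and leaving out each heart. Values within a day, and without the 2 hearts with mt-Atp6, were added after seeing the data.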

Additional observations from a re-analysis of the deposited data

How the results depend on the processing

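Counts are of genes called by limma unless a log2 difference is named. For transgenic vehicle against wild type, 5 of the 8 channel genes became 1 with day 158 hearts only, 0 within day 125 and 2 within day 158, and 4 to 5 when single hearts were left out. The 4862 of all genes became 2458 with the replicate block, 1217 with day 158 only, 1124 within day 125 and 2252 within day 158. For JIB-04 against wild type, 3 channel genes became 1 with the replicate block, 0 with day 158 only, within day 125 and within day 158, and 0 to 4 when single hearts were left out, and the 4354 genes became 1542, 651, 1083 and 1489, and 1720 to 5322 without single hearts (2186 without JIB-04 heart 1, 1720 without JIB-04 heart 2). For JIB-04 against vehicle no setting called a channel gene, and the 1 gene became 0 (pseudocount 0.1, 5 FPKM filter, replicate block, day 158 only, 2 hearts removed), 6 without a filter, 2 without the trend, 2 within day 125 and 0 to 3 without single hearts. For day, 51 genes became 23 without a filter, 185 with scaling without mitochondrial genes (80.5% of them higher, against 41.2% of the 51), 3 with the replicate block, 17 in wild type only, 20 without the 2 hearts and 9 to 287 without single hearts. For the difference between days, 1 gene became 0 (pseudocount 0.1, 5 FPKM filter), 186 without a filter, 3 without the trend and 0 to 17 without single hearts. The settings with day 158, wild type or left-out hearts use fewer hearts. The cause of the other shifts was not tested.

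The 5 channel genes called in transgenic vehicle hearts kept their direction in every setting run. With the replicate block Cacna1c lost its call (0.27, adjusted p = 0.14), as did Cacna1a (0.078), Cacna1s (0.14) and Cav3 (0.054) in transgenic vehicle hearts. The filter of 5 FPKM left Cacna1h and Hcn4 untested. Whether replicate numbers pair hearts was not settled. Deviations from the group mean correlated from -0.19 to 0.43 in same-numbered hearts and from -0.43 to 0.36 in others. Deviations in a group of 2 mirror each other, so these values cannot decide it. Every difference that reversed was uncalled. Cacna1h against wild type turned to 0.09 (day 158 only, within day 158) and Scn4b to 0.17 (within day 125), and Scn4b with JIB-04 to -0.54 (day 158 only, within day 158). For JIB-04 against vehicle, Hcn2 turned to 0.01 (pseudocount, median of ratios), 0.03 (scaled) and 0.31 (day 158), Cacna1g to 0.02 (no day term) and 0.09 (day 158), Cacnb2 to -0.00 (no day term) and -0.04 (2 hearts removed), and Cacna1c to 0.02 (within day 125) and 0.05 (2 hearts removed). For day, Cacna2d1 turned to 0.02 (scaled) and 0.16 (replicate block), Hcn2 to -0.04 and Hcn4 to -0.19 (replicate block), Hcn4 to -0.09 and Scn4b to 0.50 (wild type only), and Hcn4 to -0.02 and Scn4b to 0.37 (2 hearts removed). Without single hearts or those 2, Cacna1h against wild type ranged from -0.19 to 0.07 and Scn4b with JIB-04 from -0.35 to 0.95. Against vehicle, JIB-04 values ranged from -0.18 to 0.05 (Cacna1c), -0.37 to 0.21 (Cacna1g), -0.36 to 0.28 (Hcn2) and -0.04 to 0.14 (Cacnb2). For day they ranged from -0.41 to 0.37 (Scn4b), -0.10 to 0.25 (Hcn2) and -0.02 to 0.26 (Hcn4). For the difference between days they ranged from -0.13 to 0.05 (Cacna1c), -0.83 to 0.34 (Cacna1g), -0.36 to 0.20 (Cacna2d1), -0.19 to 0.16 (Cacnb2) and -0.02 to 0.66 (Hcn4).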

Other observations

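Of 15 transcription factors that regulate conduction tissue or channel genes, 13 were tested, and 3 rose and 4 fell in transgenic vehicle against wild type hearts, against 20.3% and 15.7% of all genes tested. Their median log2 difference was -0.11, against 0.05 over all genes. Tbx18, which marks the sinoatrial node head, rose by 0.81 (limma adjusted p = 0.00059), and Gata4, a cardiac factor that cooperates with NFAT, rose by 0.62 (0.0041). Hey2, a factor of compact ventricular muscle, was at 0.811 to 1.16 FPKM in transgenic vehicle hearts, 0.587 and 0.626 in JIB-04 hearts and 2.09 to 2.28 in wild type hearts, and fell by 0.70 (0.0016). Mef2c, a muscle factor, fell by 0.62 (0.0017) and Irx5 rose by 0.40 (0.017). Nkx2-5, a cardiac factor, was at 40.6 to 47.9 FPKM over all 9 hearts, with a log2 difference of -0.06 (0.6). Rest, a repressor of fetal cardiac genes that include Hcn4 and Cacna1h, stood at 3.20, 3.59 and 3.54 FPKM in transgenic vehicle hearts and 2.85 to 3.37 in wild type hearts, which overlap, and did not pass (0.10, limma adjusted p = 0.31). At 3.64 and 4.18 FPKM it was above all wild type hearts with JIB-04 and passed there (0.27, limma adjusted p = 0.041). None of the 13 passed between JIB-04 and vehicle. Against wild type hearts, 5 of the 13 were higher and 4 lower with JIB-04, where 17.4% and 14.8% of all genes tested were.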
